A study of Mus musculus with 4 samples.

Results

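CTCF binding sites were described around 9 genes of hepatic transcription factors, Hnf4a, Nr1h4, Foxa1, Foxa2, Foxa3, Cebpa, Cebpb, Onecut1 and Prox1. The genes were chosen by name, out of 22350 protein-coding genes annotated on the autosomes and chromosome X of mm9. A site was taken when at least 1 bp of it lay in the gene body or in the 200 kb on both sides of it. This gave 53 of the 10113 sites listed at ZT0 and 33 of the 6799 sites listed at ZT12, which are 54 different sites when overlapping ones are counted once. ChIP-seq against CTCF had been carried out on livers of wild-type C57BL/6 males. The mice lived in 12 h of light and 12 h of darkness with free access to food. Their age is labelled as 8 weeks, and the methods of the study describe mice of 8 weeks kept in this cycle for 2 weeks. The time points were ZT0 (lights on) and ZT12 (lights off), and each had 2 biological replicates. No animal was treated. The methods of the study describe each liver sample as a pool of 2 livers. In ChIP-seq, an antibody pulls down a protein with the DNA it is fixed to, this DNA is sequenced, and a site (peak) is a stretch with more reads than its surroundings. Each time point has a single list of positions that joins both replicates and holds no height, strand or replicate. The spread between replicates and the depth behind a site are therefore unknown, and differences between the time points below are differences between lists without a test. The lists used here are shorter than the set of CTCF sites that the study describes, so that a site listed at a single time here need not lack CTCF at the other.

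CTCF is a zinc finger protein that binds a long, directional DNA motif and, together with cohesin, holds chromatin loops and the borders of chromatin domains. Loops often form between motifs that point towards each other. The 9 factors belong to the network that gives hepatocytes their identity and regulates genes of lipid, glucose, bile acid and plasma protein metabolism.

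All 9 genes had a listed site in their window at ZT0, against 79.1% of protein-coding genes, and all 9 at ZT12, against 72.4%. Within 10 kb of the gene body, 8 genes had a ZT0 site, against 33.6% of protein-coding genes, and 6 had a ZT12 site, against 25.2%. Prox1 had none at either time, and Onecut1 and Nr1h4 had none at ZT12. Foxa3 had the most sites, 12 at ZT0 and 10 at ZT12. Hnf4a and Cebpa had 8 and 4, Cebpb 8 and 5, Foxa2 5 and 3, Onecut1 5 and 2, Nr1h4 3 and 1. Foxa1 and Prox1 had 2 sites at each time. The median was 5 sites per gene at ZT0 and 3 at ZT12, beside 3 and 2 over all protein-coding genes, with lower and upper quartiles of 1 and 6 at ZT0 and of 0 and 4 at ZT12. At ZT0, 96.5% of protein-coding genes had fewer sites than Foxa3, 85.6% had fewer than Hnf4a, Cebpa or Cebpb, and 34.3% had fewer than Foxa1 or Prox1. The windows differ in how many genes they hold: 22 protein-coding gene records in that of Foxa3, 13 in that of Hnf4a, 2 in that of Prox1, and in that of Foxa2 no other than Foxa2 itself. Per megabase of window, the ZT0 list held 29.2 sites around Foxa3 and 4.46 around Prox1, against a median of 6.79 over all protein-coding genes.

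Shared sites are those with an overlap of at least 1 bp with a site from the other list. Of the 53 ZT0 sites, 32 were shared (60.4%, 95% Wilson interval 46.9 to 72.4%), against 56.2% of all ZT0 sites. Foxa3 alone gave 10 of these 32, out of 12 ZT0 sites in its window. Of the 33 ZT12 sites, 32 were shared (97.0%, 84.7 to 99.5%), against 83.6% of all ZT12 sites. The intervals cover counting error only and treat sites of the same window as independent. Since the ZT0 list is the longer, its shared fraction is bounded by the length of the ZT12 list. Sites listed only at ZT0 numbered 21 and lay around 7 of the 9 genes, against 64.4% of protein-coding genes with such a site in their window, while around Foxa1 and Prox1 every site was listed at both times. The single site listed only at ZT12 lay downstream of Cebpa, which made 1 of 9 genes, against 28.0%. Shared ZT0 sites had a median width of 361.5 bp and those listed only at ZT0 one of 274 bp. Over the whole ZT0 list these medians were 346 and 277 bp. Of the 27 sites at least as wide as the median of the ZT0 list (313 bp), 23 were shared, and of the 26 narrower sites 9 were shared. The corresponding percentages were 85.2% and 34.6% around these genes, and 72.2% and 40.1% over the whole list. Of the 21 sites listed only at ZT0, 9 (42.9%) had a ZT12 site within 10 kb, against 16.7% of all sites listed only at ZT0. Their gap to the nearest ZT12 site ran from 0.458 kb near Foxa3 to 190 kb near Foxa2.

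**Figure D1:**
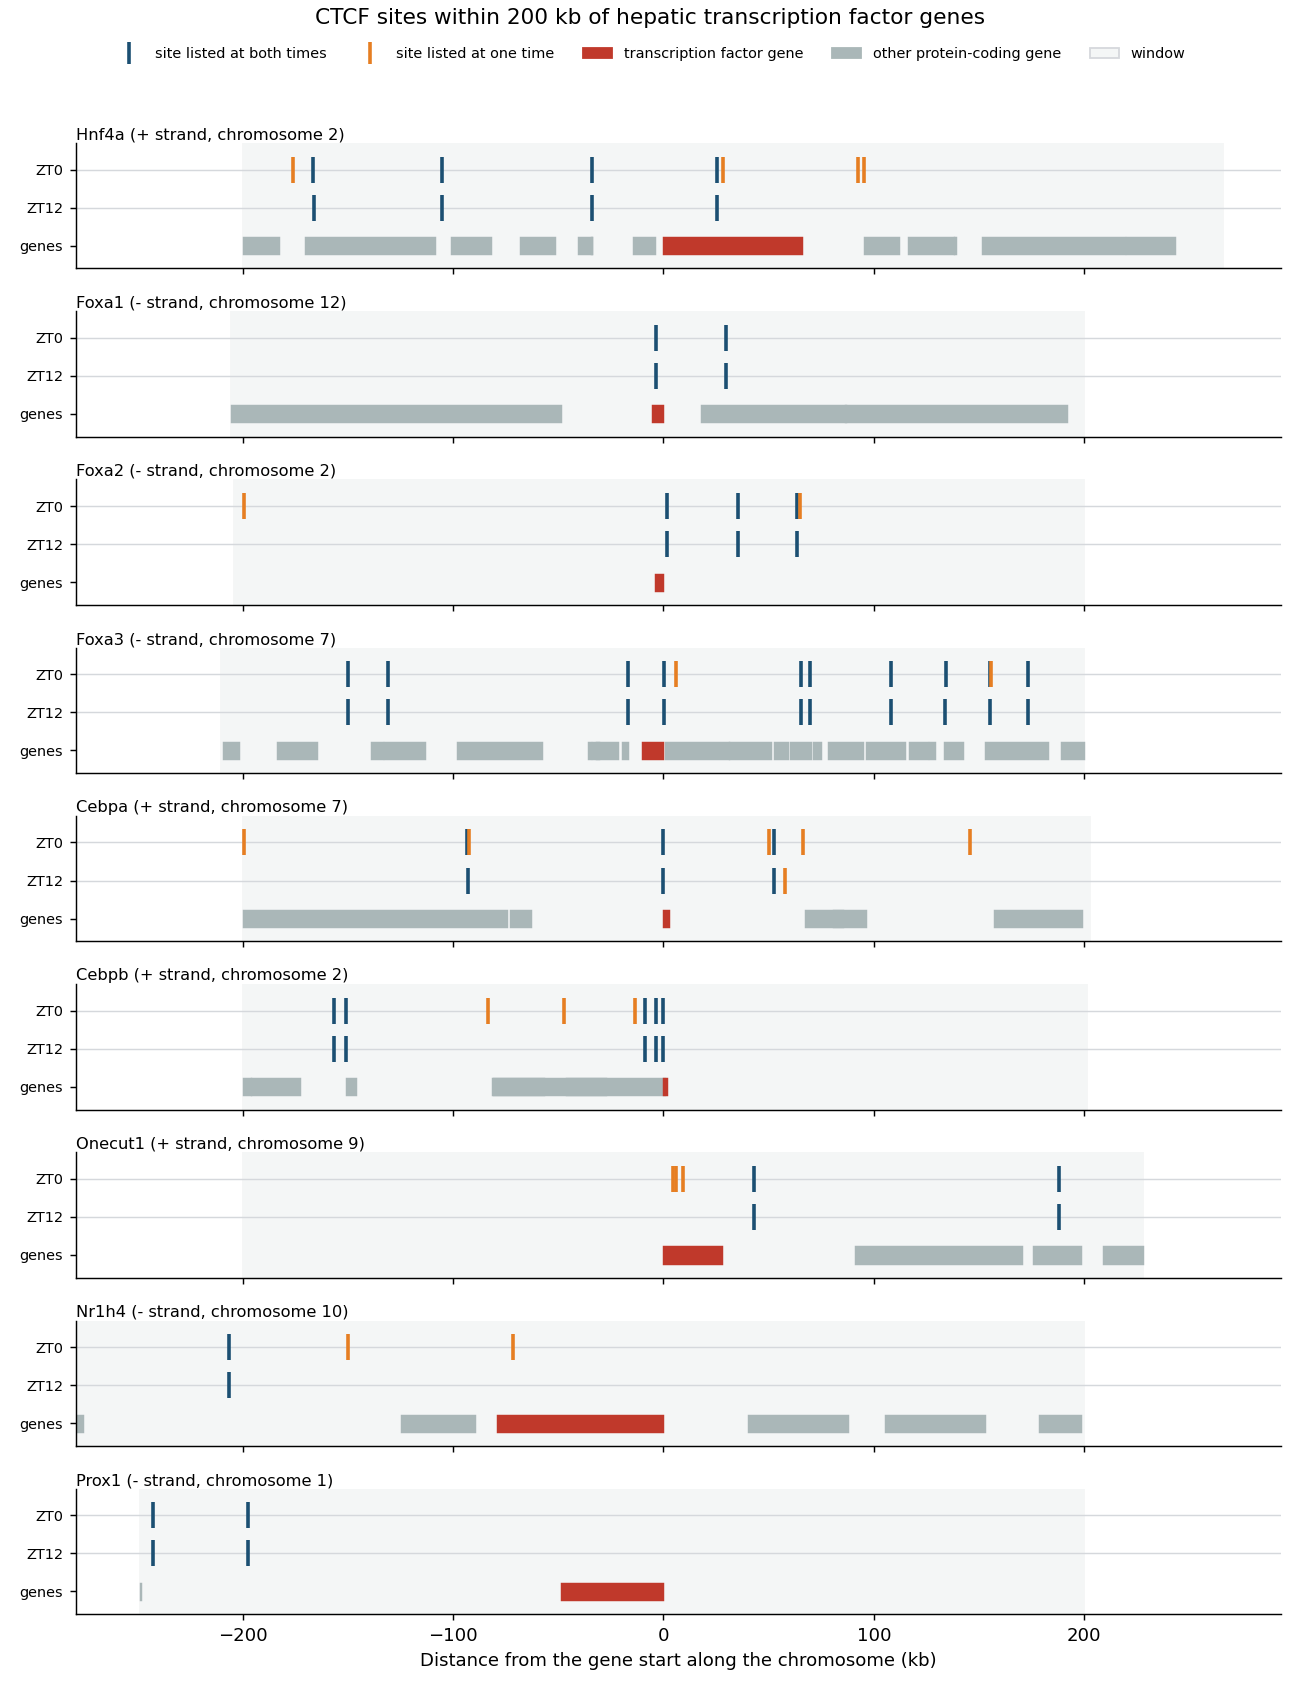
Map of the 9 windows, with the distance from the gene start along the chromosome in kb on the x axis, ZT0 and ZT12 sites as ticks on separate lines, and protein-coding genes as bars. Dark ticks are sites listed at both times and orange ticks are sites listed at a single time, of which 21 are from ZT0 and 1 from ZT12, the latter downstream of Cebpa.

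By midpoint, 13 of the 53 ZT0 sites (24.5%) lay within 1 kb of an annotated start of a protein-coding gene, 4 (7.55%) in exons farther away, 17 (32.1%) in introns and 19 (35.8%) outside protein-coding genes. Over all ZT0 sites these percentages were 18.4%, 5.18%, 29.7% and 46.7%. Of the 13 sites near a start, 10 were shared (76.9%), against 62.1% of all ZT0 sites near a start, and of the 17 sites in introns, 8 were shared (47.1%), against 51.9%. The gene-dense Foxa3 window held more of these 13 sites than any other window, and all of its sites near a start were shared. Most of the 13 lay at starts of neighbouring genes, not of the 9 genes themselves. A site lay within 1 kb of the gene's own start, meaning the outermost annotated start of the gene record, at 3 of the 9 genes, Foxa3, Cebpa and Cebpb. The same 3 genes were counted at ZT0, against 6.62% of protein-coding genes, and at ZT12, against 4.43%. With any annotated transcript start, Onecut1 joined them at ZT0, which made 4 genes (8.55% of protein-coding genes), and the count at ZT12 was again 3 (5.72%). A site lay inside the gene body of Hnf4a, Foxa1, Onecut1 and Nr1h4 at ZT0 (4 of 9 genes, against 16.2%) and of Hnf4a and Foxa1 at ZT12 (2 of 9, against 11.1%). Of the 53 ZT0 sites, 27 (50.9%) lay within 10 kb of another ZT0 site, against 26.6% of the whole list. At ZT12, 9 of the 33 sites (27.3%) lay within 10 kb of another ZT12 site, against 21.2%.

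Hnf4a encodes a nuclear receptor that activates a large part of the hepatocyte programme. The gene lies on the plus strand at chr2:163332544-163398646. At ZT0, 2 of its 8 sites lay in its introns. The nearest to the gene start, chr2:163357697-163358039, lay 25.3 kb downstream of the start and 4887 bp from the closest annotated transcript start. It was 343 bp wide at ZT0 and 229 bp at ZT12 (chr2:163357680-163357908). The second intronic site, chr2:163360588-163361018, was listed only at ZT0 although it was the wider one with 431 bp, more than 86.7% of the ZT0 list. It lay 2.68 kb from the nearest ZT12 site, the one in the same gene. Upstream, a shared site marked the start of Fitm2, a gene of lipid droplet formation (chr2:163298307-163298601, 295 bp at ZT0; chr2:163298371-163298647, 277 bp at ZT12), and its midpoint fell in a coding exon of 2310001K24Rik. Another shared site lay between Jph2 and 3230401D17Rik, 105 kb from the Hnf4a start (chr2:163226943-163227346, 404 bp; chr2:163226908-163227362, 455 bp). An intron of Jph2, which encodes a junctional membrane protein, held the fourth shared site (chr2:163166062-163166288, 227 bp; chr2:163166090-163166321, 232 bp). The remaining sites were listed only at ZT0. They were chr2:163156466-163156748 (283 bp) between Tox2 and Jph2, chr2:163425050-163425302 (253 bp) between Hnf4a and Ttpal, and chr2:163427825-163428089 (265 bp) with its midpoint 93 bp from the start of Ttpal. Downstream of the gene body the window thus held 2 sites at ZT0 and 0 at ZT12.

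Nr1h4 encodes FXR, the bile acid receptor, which limits bile acid synthesis. It lies on the minus strand at chr10:88916979-88996330. Its window had 3 sites at ZT0 and 1 at ZT12, none of them upstream of the gene start. An intron of Nr1h4 held a site of 303 bp at ZT0, chr10:88924603-88924905, which lay 135 kb from the nearest ZT12 site. Between Ano4 and Gas2l3, 150 kb from the gene start, lay a second site listed only at ZT0, chr10:88846350-88846565. It was 216 bp wide, and only 3.02% of the ZT0 list was narrower. The single shared site lay farther out between the same neighbours, with 293 bp at ZT0 (chr10:88789645-88789937) and 275 bp at ZT12 (chr10:88789768-88790042). From it the next ZT12 site was 755 kb away.

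The FOXA proteins are forkhead pioneer factors that open liver chromatin for other regulators. Foxa1, on the minus strand at chr12:58641618-58647108, had both of its sites listed at both times. The nearer had its midpoint in a coding exon of Foxa1, 3.67 kb inside the gene. Among the shared sites around the 9 genes, it had the largest difference in width between the lists, 540 bp at ZT0 (chr12:58643167-58643706) and 220 bp at ZT12 (chr12:58643287-58643506). The other lay 30 kb upstream of Foxa1 near a start of Ttc6, with its midpoint in a coding exon of that gene (chr12:58676921-58677239, 319 bp; chr12:58676950-58677214, 265 bp). Of their bases, 65.6% and 71.5% were G or C at ZT0, against a median of 52.1% over the whole list.

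Foxa2, on the minus strand at chr2:147868613-147872705, is the sole protein-coding gene of its window. The nearest annotated neighbour on the side of its upstream sites was Sstr4, a somatostatin receptor gene, 347 kb from the first of them. That first site lay 1.74 kb upstream of the gene start and had the same width of 388 bp at both times (chr2:147874253-147874640; chr2:147874260-147874647). A second shared site followed 35.5 kb upstream (chr2:147908057-147908346, 290 bp; chr2:147908005-147908346, 342 bp) and a further shared site 63.4 kb upstream (chr2:147935934-147936194, 261 bp; chr2:147935981-147936236, 256 bp). Next to this one, with 1.43 kb between them, lay chr2:147937626-147937953, a site of 328 bp listed only at ZT0. Downstream the window held chr2:147673064-147673387 (324 bp) at its far end, also listed only at ZT0, 199 kb from the gene start and 190 kb from any ZT12 site.

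Foxa3, on the minus strand at chr7:19598631-19608887, sits in a gene-dense stretch. A shared site lay at its start, with the midpoint 126 bp upstream at ZT0 (chr7:19608849-19609177, 329 bp) and 129 bp at ZT12 (chr7:19608862-19609170, 309 bp). This place is also within 1 kb of the start of Sympk, which encodes a scaffold protein of pre-mRNA processing. An intron of Sympk held a site of 239 bp listed only at ZT0, chr7:19614682-19614920. On the other side of Foxa3, the 3′ UTR of Irf2bp1 held a shared site 16.9 kb from the gene start (chr7:19591775-19592194, 420 bp; chr7:19591840-19592201, 362 bp). Dmpk, a kinase gene whose repeat expands in myotonic dystrophy, held a pair of shared sites 3.92 kb apart at ZT0. The first had its midpoint 853 bp from an annotated start (chr7:19674266-19674509, 244 bp) and was the narrowest ZT12 site around the 9 genes with 200 bp (chr7:19674215-19674414). The second lay in the 3′ UTR, also within 1 kb of an annotated start (chr7:19678434-19678819, 386 bp; chr7:19678490-19678716, 227 bp).

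Farther upstream of Foxa3, a shared site lay near a start of Fbxo46 (chr7:19716968-19717351, 384 bp; chr7:19716989-19717271, 283 bp). Gipr, the receptor gene of the incretin GIP, held the next, with the midpoint in a coding exon at ZT0 and in an intron at ZT12 (chr7:19742774-19743236, 463 bp; chr7:19742735-19743155, 421 bp). Eml2 held 3 ZT0 sites. Its intronic sites were shared (chr7:19763822-19764165, 344 bp, with chr7:19763818-19764114, 297 bp; and chr7:19782079-19782487, 409 bp, with chr7:19782136-19782482, 347 bp). The site of 282 bp with its midpoint in a coding exon, chr7:19764573-19764854, was listed only at ZT0 and stood 0.407 kb from the first intronic site. Downstream of Foxa3 lay a shared site in an intron of Ccdc61, near an annotated start of that gene (chr7:19477563-19477939, 377 bp; chr7:19477483-19477934, 452 bp) and another between Mill2 and Pglyrp1 (chr7:19458774-19459024, 251 bp; chr7:19458744-19458992, 249 bp). In all, 10 of the 12 ZT0 sites around Foxa3 and all 10 ZT12 sites were shared.

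Cebpa and Cebpb encode basic leucine zipper factors. C/EBPα holds hepatocytes in their differentiated, resting state and drives metabolic genes, and C/EBPβ acts in the acute phase response and in regeneration. Cebpa lies on the plus strand at chr7:35904312-35906945. A shared site covered its start, with the midpoint 45 bp upstream at ZT0 (chr7:35904062-35904473, 412 bp) and 58 bp at ZT12 (chr7:35904138-35904371, 234 bp). The site with the largest ZT0 width in the window, 530 bp, lay 52.8 kb downstream between Cebpa and the amino acid transporter gene Slc7a10 (chr7:35956821-35957350) and was 407 bp wide at ZT12 (chr7:35956830-35957236). Around it stood sites listed once. chr7:35954501-35954731 (231 bp) and chr7:35970391-35970652 (262 bp, 883 bp before the start of Slc7a10) were listed only at ZT0, and chr7:35962100-35962328 (229 bp) only at ZT12, 4.75 kb from the nearest ZT0 site. Upstream, introns of the peptidase gene Pepd held a shared site (chr7:35810962-35811314, 353 bp; chr7:35811063-35811297, 235 bp), a site listed only at ZT0 with 0.459 kb between them (chr7:35811774-35812011, 238 bp), and a further ZT0 site at the edge of the window (chr7:35704920-35705209, 290 bp). The last, chr7:36049864-36050096 (233 bp), lay between Lrp3 and Gpatch1 and was listed only at ZT0.

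Cebpb lies on the plus strand at chr2:167514415-167515918, and all of its sites had their midpoints upstream of the gene start, 8 at ZT0 and 5 at ZT12. A site at the start was 536 bp wide at ZT0 (chr2:167514014-167514549) and 219 bp at ZT12 (chr2:167514050-167514268), with midpoints 134 and 256 bp upstream. It was the first of 4 ZT0 sites spread over 13.9 kb, all with midpoints in introns of a Tmem189 gene record that overlaps part of Cebpb on the opposite strand. The next were shared as well, at 3.58 kb (chr2:167510691-167510976, 286 bp; chr2:167510681-167510998, 318 bp) and at 8.71 kb (chr2:167505439-167505971, 533 bp; chr2:167505467-167505840, 374 bp). The outermost of the 4, chr2:167500670-167501219, was listed only at ZT0 although it was the widest site around the 9 genes, with 550 bp, more than 96.6% of the ZT0 list. The nearest ZT12 site stood 4.25 kb away. An intron of another Tmem189 record held chr2:167466856-167467162 (307 bp), and chr2:167430710-167431002 (293 bp) lay between Snai1 and Ube2v1, both listed only at ZT0. Far upstream a pair of shared sites stood at Snai1, the gene of a repressor of epithelial genes. The first was 238 bp from its start (chr2:167363290-167363624, 335 bp; chr2:167363254-167363600, 347 bp). The second lay between Rnf114 and Snai1 and was 460 bp wide at ZT0 (chr2:167357579-167358038) and 210 bp at ZT12 (chr2:167357735-167357944).

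Onecut1 and Prox1 encode homeodomain factors of liver development. Onecut1, also known as HNF6, acts in hepatocyte and bile duct differentiation and lies on the plus strand at chr9:74709728-74737591. Within 4.74 kb, introns of the gene held 3 sites, chr9:74714375-74714613 (239 bp), chr9:74715708-74715981 (274 bp) and chr9:74718851-74719112 (262 bp). The first had its midpoint 203 bp from an annotated transcript start. All 3 were narrower than the median of the ZT0 list and none was listed at ZT12, where the nearest site was 33.6 kb or more away. The other sites of the window were shared and lay downstream. Between Onecut1 and BC031353 stood chr9:74752738-74753004 (267 bp; 295 bp at ZT12, chr9:74752736-74753030), and an intron of the phosphatase inhibitor gene Arpp19 held chr9:74897819-74898188 (370 bp; 368 bp at ZT12, chr9:74897813-74898180).

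Prox1, needed for the migration of early hepatoblasts and later a corepressor in hepatocytes, lies on the minus strand at chr1:191945660-191994559. No site was listed in the gene body or on its upstream side in the window. Both of its sites lay downstream, between Smyd2, a lysine methyltransferase gene, and Prox1, and both were shared. The nearer stood 197 kb from the gene start and 149 kb from the gene end (chr1:191796955-191797294, 340 bp; chr1:191796994-191797284, 291 bp). The farther, 5.56 kb from Smyd2, was 401 bp wide at ZT0 (chr1:191751599-191751999) and 450 bp at ZT12 (chr1:191751523-191751972).

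At the edge of the windows, the farthest ZT0 site inside was the Pepd site of Cebpa, 199.1 kb from the gene body. The farthest ZT12 site inside was that of Prox1 at 193.7 kb. The nearest sites outside lay downstream of Cebpb at 201.5 kb at both times (chr2:167717465-167717850, 386 bp; chr2:167717460-167717864, 405 bp).

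Width was the only measure of a site that the lists carry. The 32 shared sites formed 32 pairs, and 23 of them were narrower at ZT12, 8 were wider and 1 was equal. Narrower pairs made up 71.9% here and 71.2% of all 5665 pairs. At ZT0 the paired sites had a median width of 361.5 bp and at ZT12 of 293 bp, beside 346 and 293 bp over all pairs. Around these genes, the largest differences were at Foxa1, where the exonic site was narrower by 320 bp, and at the start of Cebpb, by 317 bp. Next came the site between Rnf114 and Snai1, by 250 bp, and the start of Cebpa, by 178 bp. Over all pairs the widths at ZT12 were lower too, with a median difference of -47 bp against -43 bp around these genes.

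**Figure D2:**
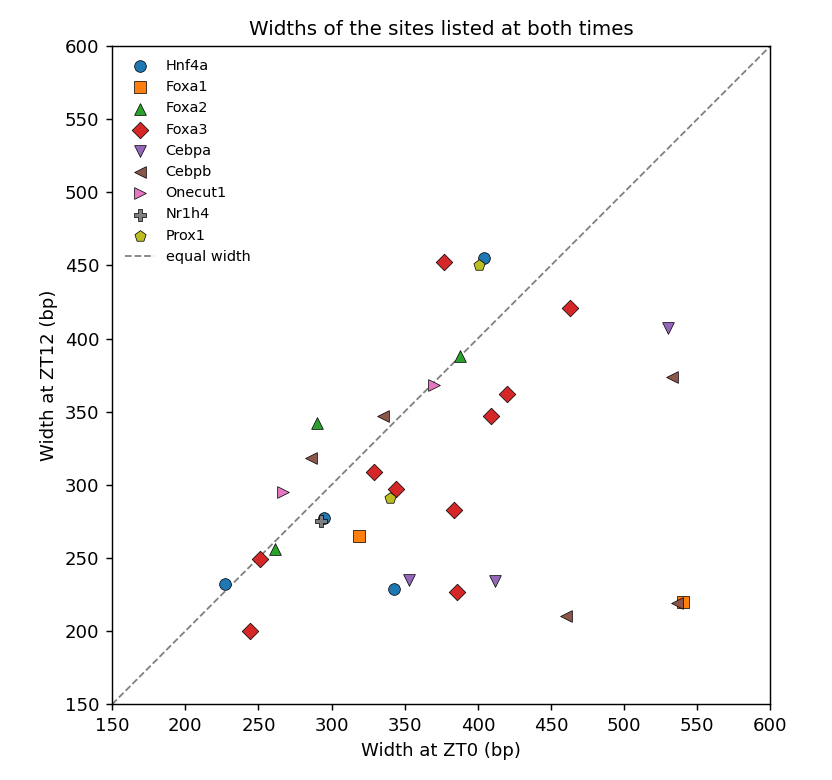
Width of each of the 32 sites listed at both times, at ZT0 on the x axis and at ZT12 on the y axis, both in bp, with a symbol per gene and a dashed line at equal width. Below the line lie 23 sites, with the Foxa1 exonic site (540 and 220 bp) and the site at the start of Cebpb (536 and 219 bp) farthest from it.

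The CTCF motif was searched for with a weight matrix of 19 bp, learned from listed ZT0 sites, with separate matrices for odd-numbered and for other chromosomes, each applied to the sites that had not trained it. A match is a position whose log2 odds score is reached in random sequence with a probability of 0.0001. All 53 ZT0 sites and all 33 ZT12 sites held a match, against 99.0% of all ZT0 and 98.9% of all ZT12 sites. Regions of the same length 5 kb away held one in 13.8% and 13.4% of cases. The lists are labelled with the name of a motif search, and whether they had been restricted to sites with a motif was not stated in the sources used here, and nothing is read from the near complete share. The midpoint of the best match lay a median of 24.5 bp from the midpoint of the site, beside 26 bp over all sites. Each of the 32 pairs had the same best match at both times, against 98.9% of all pairs. Best scores ran from 8.37 at the site before Slc7a10 to 23.60 at the site between Ano4 and Gas2l3, both listed only at ZT0. The median score was 18.59 for the shared ZT0 sites and 16.57 for those listed only at ZT0, beside 18.61 and 17.74 over the whole list.

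The matches in the sites nearest to each gene start show how close these elements stand to the consensus, and are printed on the strand of the match, with the 12 core positions (4 to 15 of the matrix) in capitals. The consensus, the most frequent base at each position, was the same for both matrices. The Cebpa match and the intronic Nr1h4 match each shared 16 of 19 bases with it, the Hnf4a match 15 and the Foxa3 match 12. The score need not follow this count. The intronic Nr1h4 match scored 16.62, and the Onecut1 match nearest at ZT12, with 12 bases shared, scored 21.66.
Consensus: tggCCACCAGGGGGCgcta
Hnf4a, intron, chr2:163357836-163357854, plus strand: tggCCAGCAGAGGGCtctc
Nr1h4, intron, ZT0 only, chr10:88924819-88924837, plus strand: tggCCACAAGAGAGCgcta
Nr1h4, nearest at ZT12, between genes, chr10:88789837-88789855, plus strand: aatCCACAAGAGGGCgccc
Foxa1, coding exon, chr12:58643393-58643411, minus strand: acgGCGACAGGGGGCgctt
Foxa2, between genes, chr2:147874378-147874396, minus strand: cggCCGACAGGGGGCgccc
Foxa3, at the start, chr7:19608996-19609014, minus strand: gatCCCGCAGGGGGCgccc
Cebpa, at the start, chr7:35904253-35904271, plus strand: tggACACCAGGGGGCgatg
Cebpb, at the start, chr2:167514166-167514184, plus strand: cctCCAGCAGGGGGCgggc
Onecut1, intron, ZT0 only, chr9:74714501-74714519, minus strand: cgaCCGCAAGGGGGCgaag
Onecut1, nearest at ZT12, between genes, chr9:74752845-74752863, plus strand: tgaCCACTAGATGGCagca
Prox1, between genes, chr1:191797109-191797127, minus strand: tggCCAGCAGATGGCagag

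The exonic Foxa1 match had the lowest score of these, 9.30, and did not reach the stricter probability of 0.00001, which the others did. Of the 53 ZT0 sites, 45 reached it (84.9%), against 89.0% of all ZT0 sites. Of the 33 ZT12 sites, 30 did (90.9%), against 90.3%. Over the 54 different sites, the best match was on the plus strand in 25 and on the minus strand in 29.

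The nearest sites of either list to the left and to the right of each gene body, also beyond 200 kb, were then taken with the strand of their best match. Motifs pointed towards each other (plus on the left, minus on the right) around 4 of the 9 genes, Foxa2, Foxa3, Cebpa and Cebpb, against 26.0% of 22112 protein-coding genes with a site on both sides. They pointed to the same strand around Hnf4a, Onecut1 and Prox1, and away from each other around Foxa1. At Nr1h4 the best-scoring strands were also the same, but its right bracket, chr10:89544606-89544795, listed only at ZT12, held no match. With only sites that held a match, the right bracket of Nr1h4 was chr10:90191555-90191850 on the plus strand, so that its motifs pointed away from each other. The stricter probability was not reached by the left match of Foxa2 (score 12.18), the right match of Cebpb (9.32) and this right match of Nr1h4 (11.07), so that 2 of the 4 genes with motifs towards each other rest on a weaker match on one side. The interval between the bracketing midpoints was 17 kb around Foxa3, 50.3 kb around Cebpa, 127 kb around Hnf4a, 201 kb around Foxa2, 203 kb around Cebpb, 590 kb around Foxa1, 698 kb around Nr1h4 (1345 kb with only sites that held a match), 763 kb around Onecut1 and 824 kb around Prox1, beside a median of 276 kb over all genes. Foxa2, Foxa3, Cebpa, Cebpb, Onecut1 and Prox1 were the only protein-coding genes that lay whole within their intervals. At Cebpa and Cebpb the left bracket was the site at the gene start, and at Foxa3 the right bracket was. Whether any of these pairs forms a loop was not tested.

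The remaining bracketing matches are printed in the same way, since the orientation rests on them. None is printed for the right bracket of Nr1h4, which held no match.
Hnf4a, left, chr2:163298426-163298444, minus strand: cgcCCTCTAGGGGGCggag
Hnf4a, right, ZT0 only, chr2:163425166-163425184, minus strand: ctgACAGTAGGGGGAgatg
Nr1h4, left, ZT0 only, chr10:88846406-88846424, minus strand: ctgCCACTAGGTGGCgcca
Foxa1, left, ZT12 only, chr12:58087228-58087246, minus strand: tctCCACTAGGTGCCagca
Foxa1, right, chr12:58677076-58677094, plus strand: cgaCCTGCAGGGGGCgccg
Foxa2, left, ZT0 only, chr2:147673237-147673255, plus strand: tctCCTTTAGATGGCgcca
Foxa3, left, chr7:19592027-19592045, plus strand: tgaCCACTAGGTGGTgcct
Cebpa, right, ZT0 only, chr7:35954599-35954617, minus strand: tgcCCGGTAGGTGTCactg
Cebpb, right, chr2:167717653-167717671, minus strand: tggCCACTGAGAGGCgctg
Onecut1, left, ZT12 only, chr9:73989855-73989873, plus strand: tggCCACTAGATGTCagca
Prox1, right, chr1:192621243-192621261, minus strand: tgaCCAGCAGGTGGCagta

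With ZT0 sites alone the same 4 genes had motifs that pointed towards each other. The calls at Foxa1 and Onecut1 rest on left brackets listed only at ZT12 and changed with ZT0 sites alone. The left bracket of Foxa1 was then chr12:57782536-57782818 on the plus strand, so that its motifs pointed to the same strand, and that of Onecut1 was chr9:73830830-73831080 on the minus strand, so that its motifs pointed away from each other. At Hnf4a and Prox1 the motifs pointed to the same strand with either list alone. With ZT12 sites alone there were 3, Foxa3, Cebpa and Cebpb, since the left bracket of Foxa2 was then a site listed only at ZT12 with its best match on the minus strand. The best-scoring strands at Nr1h4 also faced each other with ZT12 sites alone, but the right bracket was the site without a match.

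As a comparison, 33 other regulators of liver genes were examined in the same windows, of which 32 were annotated as protein-coding and Cebpd was not. At ZT0, 31 of the 32 had a site, against 79.1% of protein-coding genes, and at ZT12 27, against 72.4%. The medians were 5 and 4 sites per gene, beside 3 and 2 over all protein-coding genes. Of their 170 ZT0 sites 60.0% were shared, against 56.2% of all ZT0 sites, and of their 112 ZT12 sites 91.1%, against 83.6%. The window of Cebpg overlaps that of Cebpa, so that 7 sites at ZT0 and 4 at ZT12 were counted in both sets. Creb3l3, a hepatic factor of lipid metabolism, had the most sites, 17 at ZT0 and 13 at ZT12. Gata6 had 0 at both times, and Nr5a2, Nr2f2, Rxra and Thrb had 0 at ZT12. A site lay within 1 kb of an annotated start of 5 of these 32 genes at ZT0, against 8.55% of protein-coding genes, and of 4 at ZT12, against 5.72%. At Tbx3, a T-box factor of hepatoblasts, it was listed at both times (chr5:120120452-120120888, 437 bp; chr5:120120501-120120831, 331 bp). At Nr1i2, which encodes the xenobiotic receptor PXR, it was listed only at ZT0 (chr16:38295650-38295964, 315 bp). Nr1h3 (LXRα), Nr3c1 (the glucocorticoid receptor) and Xbp1, a factor of the unfolded protein response, had such a site at both times, with widths at ZT0 of 336, 308 and 408 bp.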

How the data were processed

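The 4 samples are CTCF ChIP-seq libraries of mouse liver, 2 biological replicates for ZT0 and 2 for ZT12. Reads had been aligned to NCBIM37/mm9 (Bowtie2), selected for mapping quality (samtools), cleared of duplicates (Picard) and passed to MACS2 for peak calling. The authors deposited 1 list per time point, whose values are genome positions, the start and end of each site. The label of the lists names FIMO and both replicates, but how it was used and how replicates were joined are not given in the sources used here. Genes, transcripts and sequence were taken from GENCODE and the genome of mm9. Of a regulator with several gene records the longest was used. Every site of the 9 genes is named. Neighbours are the protein-coding gene that holds the midpoint, otherwise the nearest on each side. Matches are printed for the site nearest to each gene start and for bracketing sites. Of the other regulators, those with the most and the fewest sites and those with a site at a start are named. The genes and lists were chosen with earlier results of these data known. No test was run. Overlap and motif search were checked on simulated sites. Python 3.11.15, NumPy 2.4.6, pysam 0.24.0 and matplotlib 3.10.9 were used.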

Additional observations from a re-analysis of the deposited data

How the results depend on the processing

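The lists hold no replicate, height or depth, so leaving out a replicate could not be done. No paired analysis was possible because replicates are joined in each list and no test was run. Which sites a deeper or a stricter list would hold is unknown. The number of sites followed the window: with 50, 100 and 500 kb on both sides it was 25, 34 and 102 at ZT0 and 14, 19 and 72 at ZT12, in place of 53 and 33. It was the same by midpoint and with the longest protein-coding transcript as the gene body. With only sites at least as wide as their list's median it was 27 at ZT0 and 17 at ZT12. The shared fraction was then 85.2% from ZT0 and 100% from ZT12, against 72.2% and 90.9% of all such sites in the whole lists. With the ZT0 list reduced to its widest sites, as many as the ZT12 list holds, the shared fraction was 73.0% from ZT0 and 81.8% from ZT12. The share over the whole lists under this reduction is not given here. Other overlap rules and the windows of 100 and 500 kb left the shared fractions within their intervals. They ran from 52.9 to 64.2% at ZT0 and from 87.9 to 97.0% at ZT12. With 50 kb the shared fractions were not calculated. Within 10 kb of the gene body, 8 genes had a ZT0 site (33.6% of protein-coding genes) and 6 a ZT12 site (25.2%). At the probability of 0.00001, 85.2% of the 54 sites held a motif match in place of 100%. The number of genes with motifs that point towards each other was 4 with ZT0 sites alone and with only sites that held a match. With ZT12 sites alone it was 4 by the best-scoring strand, and 3 where both sites held a match.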
